A study of Mus musculus with 2 samples.

Results

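The enzymes that add methyl groups to histone lysines, and those that remove them, were examined in nuclear RNA of mouse macrophages. They were chosen by name: protein-coding genes whose symbol starts with Kdm, Kmt, Setd, Ezh, Ehmt, Suv39h or Nsd and then a digit, without Kdm5d. Of 22028 protein-coding genes in the GENCODE M21 annotation, 42 met this rule. Of the other symbols with these stems, Kdm4dl is a pseudogene with 0 counts in both libraries. Kdm6bos is an antisense RNA inside Kdm6b, with 43 and 67 counts.

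The cells were macrophages grown from the bone marrow of C57BL/6J mice, and sex and age were not recorded. All received 100 ng/ml lipid A, the portion of bacterial endotoxin recognised by the receptor TLR4, for 12 h. They then spent 12 h without it and met 100 ng/ml again for 50 min before the nucleoplasmic fraction, also labelled nuclear, was taken. Total RNA depleted of ribosomal RNA was sequenced in 1 group of 2 libraries, replicate 1 from 500 ng of RNA and replicate 2 from 1000 ng, with 20612078 and 22772081 counts in annotated genes. Both carry the same donor entry and no label names separate animals or cultures, so each SD is the spread between these libraries only, which may be technical. Replicate and RNA input cannot be told apart. No other treatment or time was analysed here, so levels are described within this state and none is a response to lipid A. All 8 macrophage markers examined lay between 13.9 and 1010 TPM. Those of 6 other blood and connective tissue cell types reached at most 0.61 TPM, and Kdr of the endothelial list stood at 9.13 TPM. TPM is a level per effective transcript length, scaled to the same total in each library.

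Histone lysine methylation is written mostly by SET-domain methyltransferases and erased by flavin-dependent amine oxidases or by iron-dependent JmjC-domain oxygenases. Sites are named by histone and lysine, as in H3K4. Methylation of H3K4 marks promoters and enhancers, that of H3K36 marks transcribed gene bodies, and that of H3K9 and H3K27 marks silent chromatin. In macrophages the H3K27 demethylase Kdm6b is known as a gene induced by endotoxin, and H3K4 methylation is known to mark enhancers that activation opens. The genes themselves are mostly expressed broadly, and their start regions are often rich in the dinucleotide CG.

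The sequence before the start of transcription is shown first for 3 enzymes, to let the range of CG content be seen. They are the highest pair by TPM and the lowest enzyme among those whose window overlapped no annotated gene. Each run is the 250 bases before the RefSeq start in GRCm38.p6, read 5′ to 3′ on the gene's strand, and capitals mark every CG. Kmt2d lies at chr15:98871206-98871455 (reverse strand), Kmt2c at chr5:25498784-25499033 (reverse strand) and Kdm8 at chr7:125444370-125444619 (forward strand).
Kmt2d: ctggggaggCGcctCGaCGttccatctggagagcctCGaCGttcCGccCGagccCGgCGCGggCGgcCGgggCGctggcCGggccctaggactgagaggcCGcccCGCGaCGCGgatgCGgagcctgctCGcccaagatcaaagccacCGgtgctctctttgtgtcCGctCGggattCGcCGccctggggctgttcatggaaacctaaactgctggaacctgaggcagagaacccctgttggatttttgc
Kmt2c: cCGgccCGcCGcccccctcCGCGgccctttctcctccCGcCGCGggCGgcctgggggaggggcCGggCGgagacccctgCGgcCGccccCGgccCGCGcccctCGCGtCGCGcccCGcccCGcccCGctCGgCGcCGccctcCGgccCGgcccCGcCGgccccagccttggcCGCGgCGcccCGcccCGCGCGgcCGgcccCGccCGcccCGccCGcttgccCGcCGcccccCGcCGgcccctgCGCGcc
Kdm8: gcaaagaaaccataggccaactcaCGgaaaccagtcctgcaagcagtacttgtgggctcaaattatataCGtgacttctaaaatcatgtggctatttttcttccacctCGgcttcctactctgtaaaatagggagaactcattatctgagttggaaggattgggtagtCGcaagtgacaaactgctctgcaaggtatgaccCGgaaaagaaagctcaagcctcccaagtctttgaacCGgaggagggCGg

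Kmt2d held 26 CG dinucleotides in this window and Kmt2c 48, whereas Kdm8 held 7. A RefSeq start within 500 bases of the start of the main full-length coding transcript was found for 30 of the 42 enzymes. Of these, 28 (93.3%) held at least 10 CG, with a median of 20.5 and the highest, 56, before Kdm7a. The same was true of 74.9% of 8897 measured protein-coding genes (at least 10 counts summed over both libraries) and of 55.5% of all 14836 matched, with medians of 16 and 11. Besides Kdm8, the exception was Setd5, with 0 CG before a RefSeq start 102 bases from the transcript's start. That window, at 113104685 to 113104934 on chromosome 6, lies well inside the annotated gene, which runs from 113077365 to 113153435. The sequence before the first base of the Setd5 gene was not examined. Setd5 was also the most abundant of the enzymes, and Kdm4d, the least abundant, held 14 CG. Across the 30, CG count and TPM ranked with a Spearman's rho of 0.163, which is a description of these genes in these libraries.

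Nearly all of the enzymes were present in the nuclear RNA. Of the 42, 41 had 10 or more counts in both libraries, against 50.4% of all protein-coding genes, and 38 had 100 or more. Their median level was 10.02 TPM, with 9.525 and 10.39 in replicates 1 and 2, against 3.585 TPM for the 12140 measured protein-coding genes. Of the 42, 32 lay above that median, which splits the measured genes evenly by definition. The 6 above their 90 percentile, 28.7 TPM, were Setd5, Nsd3, Kmt2d, Ehmt2, Kdm6b and Nsd1. In the other kind of quantification the authors deposited, which matches reads to an index of transcripts without the gene-level alignments and is called index-based below, 3 lay above that table's 90 percentile. Together the 42 took 0.479% and 0.42% of all counts. A lower level can mean fewer cells with a transcript or less RNA per cell, and bulk RNA cannot tell these apart.

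**Figure D1:**
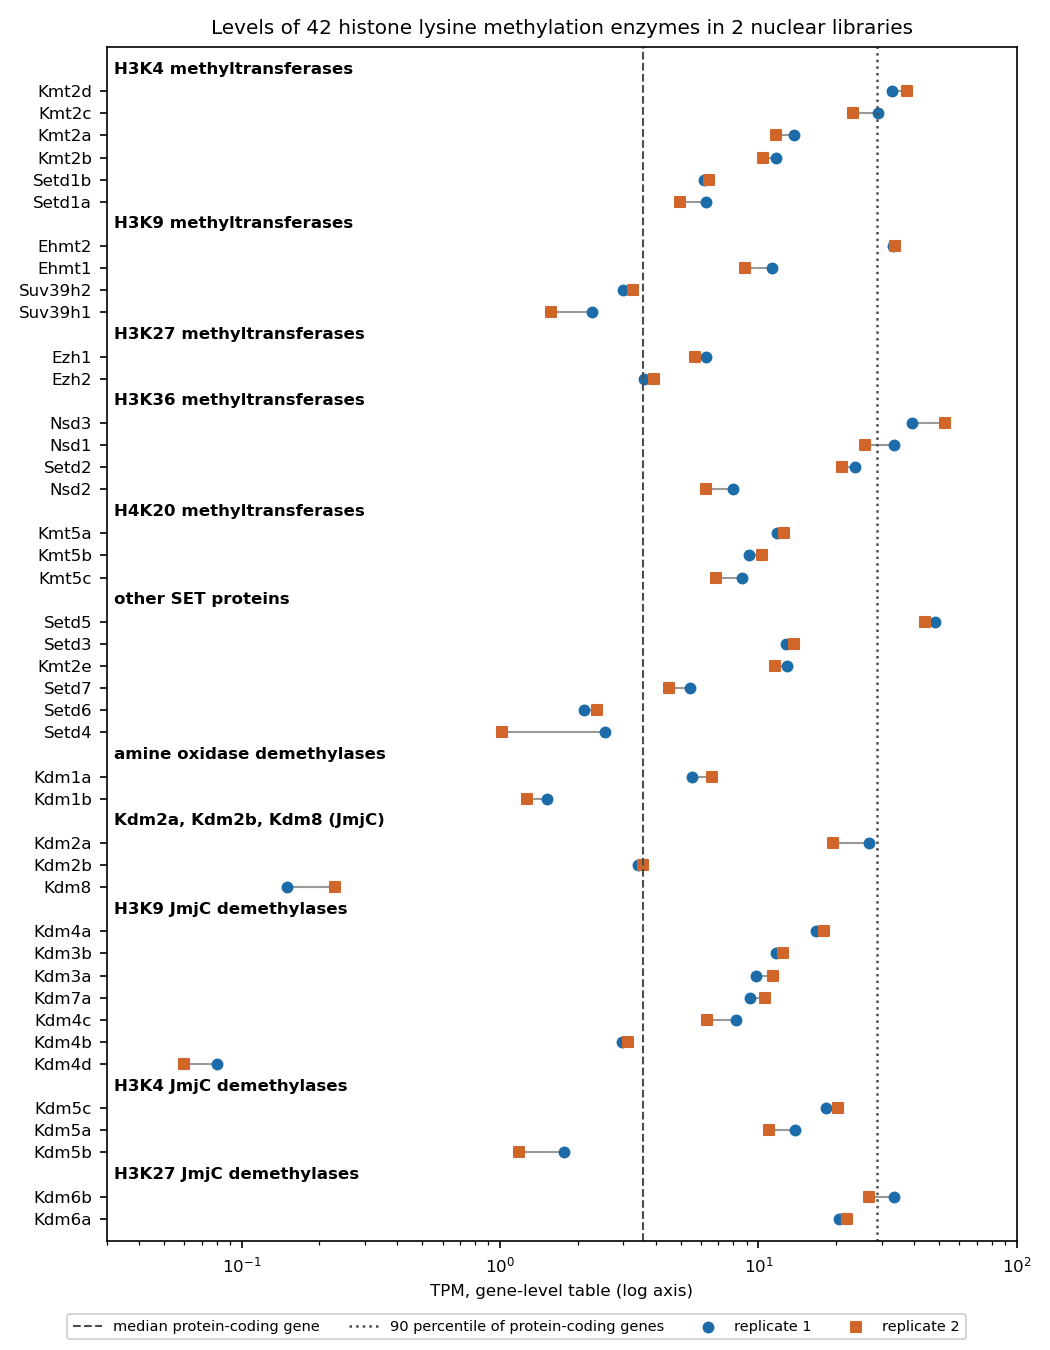
TPM of each of the 42 enzymes in replicate 1 (circles) and replicate 2 (squares), on a log axis and grouped by the site or kind of enzyme; a grey line joins the 2 libraries, and the vertical lines mark the median (3.585 TPM) and the 90 percentile (28.7 TPM) of measured protein-coding genes. Most enzymes sit between these lines or close to them, and Kdm8 and Kdm4d stand far to the left.

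The 6 enzymes grouped here as H3K4 methyltransferases all lay above the median protein-coding gene, with a median of 11.9 TPM. Kmt2d, which with Kmt2c methylates enhancers (chromosome 15, 98831669 to 98871204), stood at 33.0 and 37.5 TPM in replicates 1 and 2, or 35.2 ± 3.15 (SD, n = 2). It also had the most counts of any of the 42, 14788 and 15859, with a longest coding sequence of 16760 bases. Kmt2c stood at 29.1 and 23.2 TPM. The libraries of these enhancer enzymes did not overlap, and Kmt2d was the higher in both. Kmt2a and Kmt2b, the MLL proteins that bind promoters, followed at 13.8 and 11.8 TPM and at 11.7 and 10.4 TPM. Setd1b, at 6.17 and 6.44, and Setd1a, at 6.29 and 4.99, carry the bulk of promoter H3K4 methylation in many cells and were the lowest of the set, and their ranges overlapped.

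The H3K9 methyltransferases were split into high and low members. Ehmt2, also called G9a, which dimethylates H3K9 in euchromatin (chromosome 17, 34898469 to 34914052), was at 33.3 and 33.8 TPM, or 33.5 ± 0.304. Its partner Ehmt1 stood at 11.2 and 8.9 TPM, so Ehmt2 was 2.96- and 3.79-fold higher in the 2 libraries. The Suv39h enzymes, which trimethylate H3K9 in heterochromatin, lay below the median protein-coding gene. Suv39h2 stood at 3.0 and 3.28 TPM and Suv39h1 at 2.27 and 1.57 TPM. Suv39h1 was thus below Suv39h2 in both libraries. Suv39h2 overlaps Dclre1c on the opposite strand, which had 3905 and 4124 counts against 405 and 463 for Suv39h2.

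The catalytic subunits of PRC2, which methylates H3K27, were lower than the demethylases of the same site. Ezh1, the form usually found in resting cells (chromosome 11, 101191115 to 101226463), stood at 6.27 and 5.7 TPM, or 5.985 ± 0.403. Ezh2, the form usually linked to dividing cells (chromosome 6, 47530139 to 47595341), stood at 3.61 and 3.95 TPM, or 3.78 ± 0.24. Ezh1 was higher than Ezh2 by 1.74- and 1.44-fold, and by 2.14- and 1.515-fold in the index-based table. The authors' TPM intervals of the pair did not overlap in replicate 1 but did in replicate 2, at 5.34 to 7.085 for Ezh1 and 3.70 to 5.85 for Ezh2. By counts, which also depend on length, Ezh1 had 687 and 636 and Ezh2 134 and 177.

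Both H3K27 demethylases lay above Ezh1 and Ezh2 in each library. Kdm6b, also called JMJD3 (chromosome 11, 69398508 to 69413675), stood at 33.6 and 26.9 TPM, or 30.2 ± 4.74, with 5620 and 4513 counts. It lay above the 90 percentile in replicate 1 and below it in replicate 2, by that library's own ranking (percentiles 91.9 and 88.7). Kdm6a, also called UTX (X chromosome, 18162575 to 18279936), stood at 20.4 and 22.04 TPM, or 21.2 ± 1.13. Kdm6b exceeded Kdm6a in both libraries, by 1.64- and 1.22-fold. In replicate 2 of the index-based table the values were nearly level, with Kdm6b 1.03-fold higher. Kdm6bos stood at 2.09 and 3.02 TPM, and its counts were 1.09% of those of Kdm6b.

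The H3K36 methyltransferases had the highest median of the groups with more than 2 members, 25.99 TPM, and each of the 4 exceeded the median protein-coding gene. Nsd3, which dimethylates H3K36 (chromosome 8, 25601601 to 25719667), was at 39.2 and 52.6 TPM, or 45.9 ± 9.45. Nsd1 of the same family (chromosome 13, 55209782 to 55318325) was at 33.4 and 25.9 TPM, or 29.6 ± 5.26. Nsd3 was the higher in both libraries, but Nsd1, like Kdm6b, lay above the 90 percentile in replicate 1 and below it in replicate 2. Setd2, the main enzyme that trimethylates H3K36 behind RNA polymerase, stood at 23.7 and 20.99 TPM. Nsd2, the fourth of the group, was the lowest at 8.0 and 6.29 TPM.

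The H4K20 methyltransferases were close to each other, all above the median protein-coding gene. Kmt5a, the monomethylating enzyme, stood at 11.8 and 12.6 TPM. Kmt5b stood at 9.17 and 10.4 TPM and Kmt5c at 8.61 and 6.84 TPM, and these enzymes add the further methyl groups. The order Kmt5b over Kmt5c held in both libraries, at 1.065- and 1.52-fold, though the authors' TPM intervals overlapped in replicate 1.

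SET proteins whose main substrate is no histone site, or is debated, ran from 1.78 TPM (Setd4) to 46.2 TPM (Setd5). Setd5 (chromosome 6, 113077365 to 113153435), whose activity on histones is debated, was the highest of the 42, at 48.3 and 44.0 TPM, or 46.2 ± 3.06, with 6547 and 5674 counts. That level is over all its transcripts. Those not annotated as protein-coding held 73.3% of its TPM in the index-based table, and 60.5% and 66.0% in the alignment-based transcript table. Setd3, which methylates actin, stood at 12.8 and 13.7 TPM, with wide authors' TPM intervals of 11.85 to 31.8 and 12.5 to 22.2. Kmt2e, an MLL relative without known methyltransferase activity, stood at 12.9 and 11.6 TPM, with the opposite-strand gene Srpk2 at 61.2% of its counts. Setd7, which methylates several nuclear proteins, stood at 5.43 and 4.51 TPM. Setd6, which methylates the NF-kB subunit RelA, stood at 2.12 and 2.37 TPM. Setd4 had 49 and 34 counts and stood at 2.54 and 1.02 TPM. Its TPM thus differed between the libraries by more than its counts did, and TPM uses an effective length estimated in each library.

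Among the demethylases, the amine oxidases were modest. Kdm1a, also called LSD1, stood at 5.53 and 6.64 TPM and Kdm1b, also called LSD2, at 1.52 and 1.27 TPM, so Kdm1a was 3.64- and 5.23-fold higher. Both overlap a more abundant gene on the opposite strand: Luzp1 had 1347 and 1766 counts against 272 and 353 for Kdm1a, and Dek had 1196 and 1174 against 208 and 171 for Kdm1b. The part of these neighbours in the counts was not tested.

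The JmjC enzymes for H3K36 and H3K9 differed widely among themselves. Kdm2a, which binds unmethylated CG, stood at 26.8 and 19.4 TPM against 3.43 and 3.59 TPM for Kdm2b, a subunit of a variant Polycomb complex, a ratio of 7.80 and 5.41. In the index-based table that ratio was 5.04 and 3.54. For Kdm2b the authors' interval of TPM, whose level is not stated, ran from 4.11 to 6.065 and from 4.33 to 6.66 and so did not hold the deposited TPM in either library. It was the only enzyme of the 42 for which this was so in both libraries, as for 8.59% of measured protein-coding genes. Of the H3K9 demethylases, Kdm4a was the highest at 16.7 and 17.98 TPM. Kdm3b stood at 11.7 and 12.4 TPM, Kdm3a at 9.75 and 11.4 TPM and Kdm7a, which also acts on H3K27, at 9.3 and 10.6 TPM. Kdm4c stood at 8.21 and 6.35 TPM and Kdm4b at 2.97 and 3.12 TPM. The authors' interval for Kdm4b ran from 2.58 to 3.75 TPM in replicate 1 but from 2.87 to 38.4 TPM in replicate 2, so its level is uncertain there.

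The lowest of the 42 were Kdm8 and Kdm4d. Kdm8, a JmjC oxygenase that also hydroxylates proteins (chromosome 7, 125444676 to 125462269), had 11 and 17 counts and 0.15 and 0.23 TPM. Kdm4d (chromosome 9, 14462548 to 14500482), a family member that lacks the reader domains of Kdm4a, had 6 and 5 counts and 0.08 and 0.06 TPM. It was the 1 enzyme under 10 counts in both libraries. A count of 0 would allow up to 3 counts, or 0.146 and 0.132 CPM (counts scaled to a fixed library total), and Kdm4d was above that limit at 0.291 and 0.22 CPM. This limit covers counting error only.

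The H3K4 demethylases were led by Kdm5c, on the X chromosome, at 18.2 and 20.4 TPM. Kdm5a stood at 13.8 and 11.0 TPM and Kdm5b, often high in dividing cells and tumours, at 1.77 and 1.18 TPM. Kdm5b was therefore below the median protein-coding gene, while the other two were above it.

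Across all roles, the 19 methyltransferases of named histone sites had a median of 10.1 TPM and the 17 demethylases one of 9.97 TPM. Of the former 17 and of the latter 11 exceeded that of measured protein-coding genes. The ranges were wide on both sides, from 1.92 TPM (Suv39h1) to 45.9 TPM (Nsd3) and from 0.07 TPM (Kdm4d) to 30.2 TPM (Kdm6b).

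Close relatives were compared within each library, since their ratio does not depend on the scaling between libraries. In 10 of 12 paralogue pairs the order was the same in both libraries and in both the gene-level and the index-based table. Kmt2a over Kmt2b was 1.18 and 1.13 in the gene-level table but 1.03 and 0.988 in the index-based one. Setd1a over Setd1b was 1.02 and 0.775 in the gene-level table and 1.255 and 1.16 in the index-based one. For these pairs no order can be given. Kdm5c exceeded Kdm5a by 1.32- and 1.86-fold, Suv39h2 exceeded Suv39h1 by 1.32- and 2.09-fold, Kmt2d exceeded Kmt2c by 1.13- and 1.62-fold, and Kdm3b exceeded Kdm3a by 1.204- and 1.09-fold. The authors' TPM intervals of Kdm3a and Kdm3b overlapped in both libraries. With 2 libraries no test of these ratios was made.

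**Figure D2:**
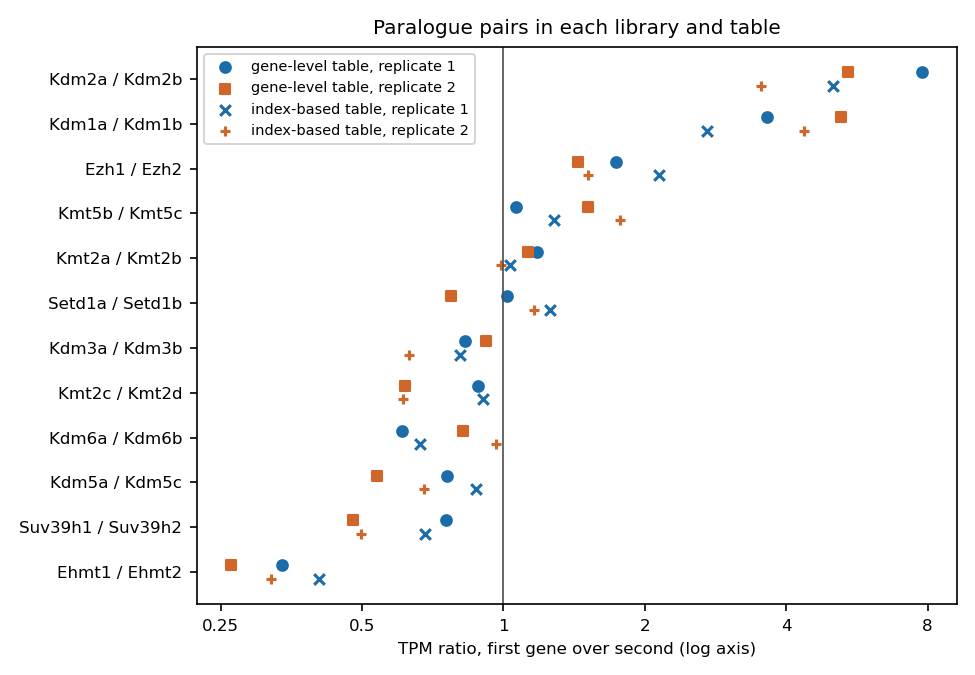
TPM ratio of the first to the second gene of 12 paralogue pairs, on a log axis, in each library of the gene-level table (filled symbols) and of the index-based table (crosses). The points of 10 pairs lie on one side of 1, and those of Kmt2a over Kmt2b and of Setd1a over Setd1b fall on both sides.

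The replicates ranked the 42 enzymes in nearly the same order, with a Spearman's rho of 0.983 across them in TPM. Between the libraries no enzyme passed a two-sided exact binomial test on counts with TMM scaling, at a Benjamini-Hochberg adjusted p under 0.05 and at least 2-fold, against 6.44% of the 16140 genes tested. Among 7845 protein-coding genes that reached 100 counts in each library, the depth of 38 of the enzymes, 1.43% passed, so 0 is near this background. That test covers counting error only and compares these libraries, not conditions. Without the fold minimum 22 of the 42 passed, all of them among those 38. Of these, 5 were higher in replicate 2, against 19.4% of all genes and 25.0% of the genes at that depth. The other 17 were lower, against 18.7% of all genes and 29.6% at that depth. At an unadjusted p under 0.05 there were 27, against 44.4% of all genes and 61.2% at that depth. With an edgeR exact test that allows a dispersion of 0.01 or 0.04 beyond counting, the number was 0 at both settings, against 1311 and 196 of all genes and 541 and 15 of those at that depth.

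The differences were small in size. The log2 ratio of replicate 2 over replicate 1 ran from -0.59 (Suv39h1, 193 and 134 counts) to 0.54 (Kdm8, 11 and 17 counts). Its median was -0.16 over the 42, with 29 below 0, against -0.03 over the protein-coding genes tested and -0.04 over those with 100 or more counts in both libraries. Of the enzymes above the 90 percentile, Nsd3 had a log2 ratio of 0.30, Kdm6b -0.38, Nsd1 -0.36 and Setd5 -0.27, while Ehmt2 was at 0.14 and Kmt2d at 0.03. The number below 0 depends on the scaling, and 13 lay above 0 with TMM, 9 with library totals and 16 in the index-based table.

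**Figure D3:**
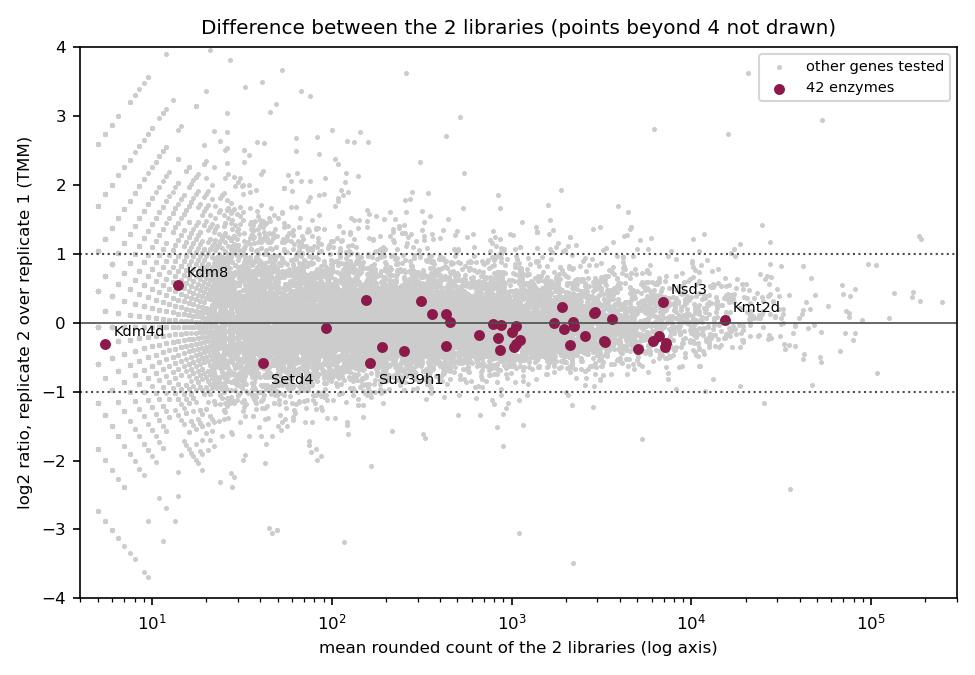
Log2 ratio of counts in replicate 2 over replicate 1 after TMM scaling, against the mean count on a log axis, for the 42 enzymes (dark points) and the other genes tested (grey). The dotted lines mark 2-fold; every enzyme lies between them, from -0.59 (Suv39h1) to 0.54 (Kdm8).

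Nuclear RNA holds unfinished and retained transcripts beside mature mRNA, so the annotated type of each enzyme's transcripts was examined. The shares are percents of a gene's transcript TPM in the index-based table, for the 38 enzymes with 100 or more counts in both libraries. At the median 35.4% of an enzyme's TPM lay in transcripts not annotated as protein-coding, against 31.8% over 7840 protein-coding genes at the same minimum. Over 50% was reached by 12 of the 38 (31.6%), close to the 27.8% of all such genes. Retained-intron transcripts took a median of 21.3%, against 13.9%. The enzymes had a median of 8.5 annotated transcripts, against 6.

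These shares rest on the unit and the table. By estimated counts, which weight long transcripts more, the median share not annotated as protein-coding was 11.75% for the enzymes and 14.2% for all genes, so the order was the other way round. In the alignment-based transcript table it was 24.2% against 20.8% of TPM. A short fragment with few counts can hold a large share of TPM: Kdm3b-203, 42 bases long, took 13.1% and 45.0% of Kdm3b TPM from 1 and 5 counts.

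**Figure D4:**
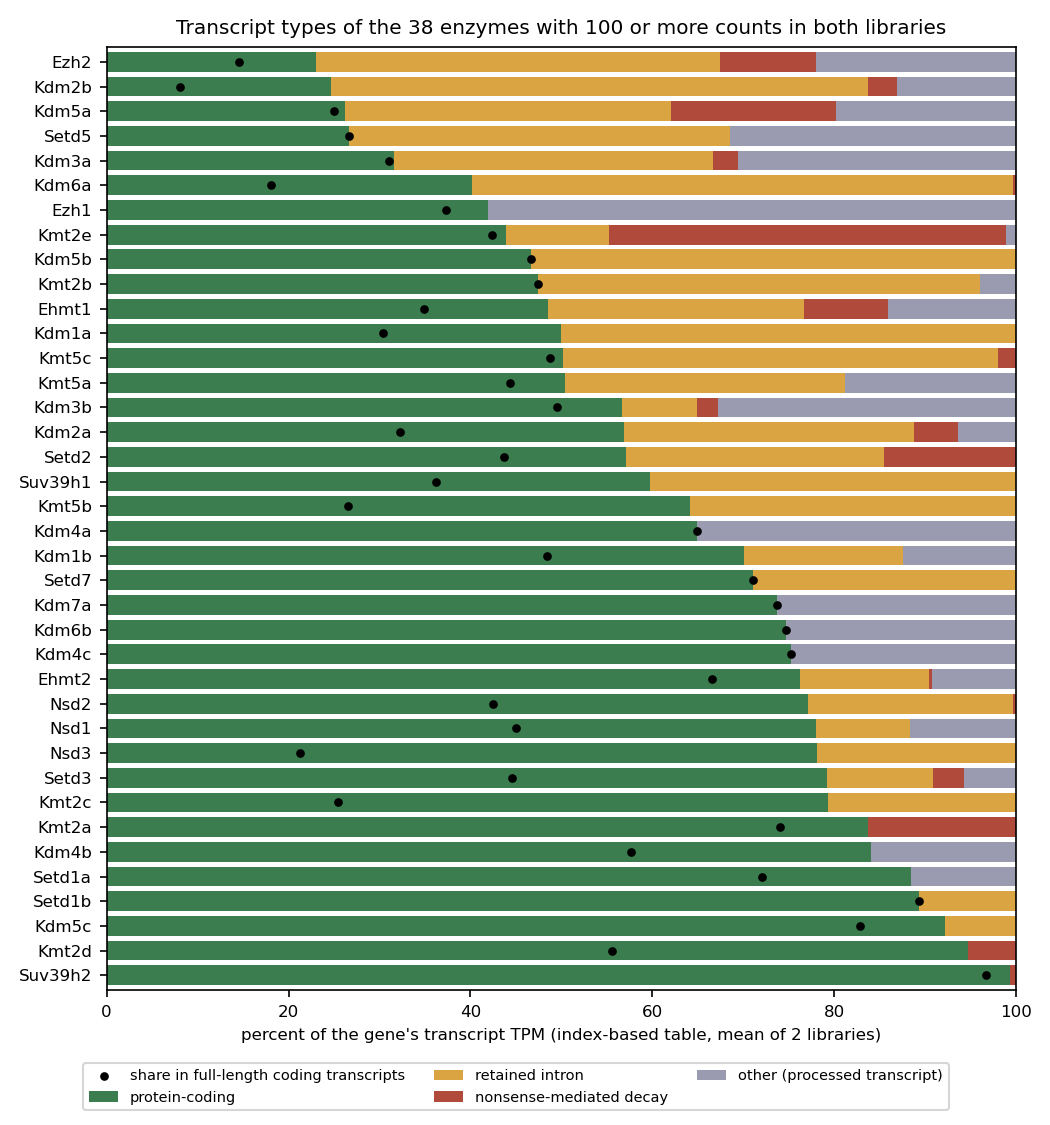
Share of each enzyme's transcript TPM by annotated transcript type, as stacked bars in percent, mean of 2 libraries in the index-based table, for the 38 enzymes with 100 or more counts in both; black points give the share in full-length coding transcripts. The protein-coding share runs from 23.0% (Ezh2) at the top to 99.4% (Suv39h2) at the bottom, and for Nsd3, Kmt2c and Kmt5b the black point lies far left of the end of the green bar.

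Ezh2 had the highest share outside protein-coding transcripts, 77.0% ± 0.01 (SD, n = 2), from a gene with only 134 and 177 counts. The parts of this share were less steady than their total. Retained-intron transcripts took 47.2% and 41.75%, and the processed transcript Ezh2-211 took 17.5% and 26.4%. The retained-intron part was spread over Ezh2-213 (14.5 and 11.2 estimated counts), Ezh2-207 and Ezh2-210 (10.5 and 8.33 estimated counts). All full-length coding transcripts of Ezh2 together held 16.3% and 12.9%. Kdm2b followed at 75.3% ± 4.06, where the retained-intron transcript Kdm2b-212 held 32.7% and 22.1%. Kdm5a stood at 73.8% ± 1.70, Setd5 at 73.3% ± 2.98 and Kdm3a at 68.4% ± 7.30. In the alignment-based table the same 5 shares were lower in both libraries, for example 38.6% and 40.0% for Kdm2b, and 71.3% and 64.0% for Ezh2. At the other end, Suv39h2 had 0.647% ± 0.915, Kmt2d 5.25% ± 7.43 and Kdm5c 7.82% ± 1.62. Kdm5c was spread over Kdm5c-203, Kdm5c-202 and Kdm5c-201, which all hold its first and last coding base.

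Ezh1 differed from Ezh2 in the annotated types of its transcripts. Its share outside protein-coding transcripts was 58.0% ± 1.14 and came mostly from the processed transcript Ezh1-209, at 46.2% and 43.7% of TPM. No retained-intron share was seen for Ezh1 in either table, and whether such a transcript is annotated for it was not checked. The alignment-based table gave Ezh1-209 9.09% and 4.90%, and the whole share 17.1% and 18.9%, so both depend on the table. For Kdm6b both tables were close: its full-length coding transcript Kdm6b-201 held 75.1% and 74.4% of TPM, and 76.5% and 73.9% in the alignment-based table. For Kdm6a the same table gave 65.3% and 51.2% for all protein-coding transcripts, against 45.1% and 35.3% in the index-based one.

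The enzymes also had less of their TPM in full-length coding transcripts, meaning those with at least 90% of the gene's longest coding sequence. The median was 44.8%, against 52.8% over all genes. Under 50% were 25 of the 38 (65.8%), against 47.0% of all such genes. Of those 7840 genes 460 had only 1 annotated transcript, against 0 of the enzymes, which leaves no shorter form to take a share. In the alignment-based table the medians were 62.6% and 67.6%. By estimated counts the medians were 79.1% and 77.5%, so this difference too depends on the unit. Shorter coding forms were abundant for some enzymes. Nsd3-203, with 42.95% of the longest coding sequence (1863 of 4338 bases), held 30.2% and 22.5% of Nsd3 TPM, and the alignment-based table gave 33.8% and 27.2%. It starts at the first coding base and lacks the last, and a short Nsd3 protein without the catalytic SET domain is known. All full-length coding transcripts of Nsd3 together held 22.9% and 19.7%, of which Nsd3-206 had 7.28% and 13.6% of TPM.

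Other shortened forms kept the opposite end. Kdm2b-201, with 59.3% of the longest coding sequence, lacks its first coding base and holds its last, and a short Kdm2b form without the JmjC domain is known. It held 17.6% and 11.2% of Kdm2b TPM, and 37.4% and 30.6% in the alignment-based table. Kmt2c-208, with 31.1% of the longest coding sequence, likewise holds the last coding base and held 22.6% and 19.8%. For Kmt2d, the 751-base fragment Kmt2d-203 held 34.0% and 31.2% of TPM from 348 and 312 estimated counts, against 20510 and 17260 for Kmt2d-201, which has the longest coding sequence. Which of these annotated forms exist as whole RNA was not tested, since the tables divide reads among transcripts by estimate.

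Reads of neighbouring genes may bear on some of these levels, which was not tested. Another annotated gene overlapped 25 of the 42 enzymes, on the opposite strand for 23, and the sources used here do not say whether counting used strand. For 7 enzymes the overlapping gene had at least 10% of the enzyme's counts: Suv39h2, Kdm1b, Kdm1a, Kdm2b, Kmt2e, Nsd2 and Setd1a. Without these 7, 28 enzymes lay above the median protein-coding gene and 6 above the 90 percentile. The genes were also long, with a median span of 52.2 kb against 23.3 kb over measured protein-coding genes. Span and TPM ranked with a Spearman's rho of 0.322 across the 41 enzymes with 10 or more counts in both libraries.

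The partners of these enzymes, and related enzymes and proteins outside the naming rule, were measured beside them. Of 48 such genes, 43 had 10 or more counts in both libraries, 32 lay above the median protein-coding gene and 4 above the 90 percentile, with a median of 6.30 TPM. Of the 44 with enough counts to be tested, 0 passed the 2-fold test between libraries, for which the backgrounds are the 6.44% and 1.43% above. Among 9 PRC2 subunits and cofactors (median 7.145 TPM), Aebp2 stood at 30.5 and 31.2 TPM and Eed, which binds methylated H3K27, at 14.0 and 13.6 TPM, both above Ezh1 and Ezh2 in each library. Mtf2, a Polycomb-like protein, stood at 11.2 and 10.2 TPM. These were the highest of that list, and Phf1 (3.16 and 3.48 TPM) and Phf19 (0.74 and 0.51 TPM) lay below Ezh1 and Ezh2 in each library.

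Among 12 subunits of the H3K4 methyltransferase complexes (median 5.405 TPM), Hcfc1 stood at 16.4 and 12.4 TPM, Ncoa6 at 16.3 and 11.7 TPM and Wdr82 at 8.36 and 8.01 TPM. They were the highest 3 of that list, in which 8 of the 12 lay above the median protein-coding gene. Its lowest were Men1 (1.92 and 2.93 TPM), Dpy30 (0.96 and 1.03 TPM) and Pagr1a (0.14 and 0.0 TPM). Among 7 partners of the amine oxidases (median 6.305 TPM), the deacetylase Hdac1 stood at 41.8 and 34.5 TPM. Glyr1, the partner of Kdm1b, stood at 24.8 and 18.9 TPM, and Phf21a at 14.1 and 18.6 TPM. These are the highest 3 of that list, and all were above Kdm1a and Kdm1b in both libraries. The rest of the list was not. Rcor3 (3.57 and 3.63 TPM), Hdac2 (2.89 and 2.22 TPM) and Rcor2 (0.1 and 0.02 TPM) lay below Kdm1a (5.53 and 6.64 TPM). Rcor1, at 6.64 and 5.97 TPM, was above Kdm1a in replicate 1 and below it in replicate 2.

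Lysine methyltransferases outside the naming rule were mixed, with 6 of 12 above the median protein-coding gene. Setdb2 stood at 21.9 and 38.6 TPM, Dot1l, the H3K79 methyltransferase, at 20.5 and 19.2 TPM, and Ash1l, which methylates H3K36, at 18.1 and 14.6 TPM. Of 9 further JmjC proteins 7 lay above it. Jmjd1c, a relative of Kdm3a, stood at 62.5 and 53.2 TPM, higher in both libraries than each of the 42 enzymes. Jarid2, a PRC2 cofactor without demethylase activity, stood at 8.44 and 9.62 TPM and Phf8 at 10.5 and 6.13 TPM.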

How the data were processed

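The deposited gene-level table and alignment-based transcript table were made by the authors from reads aligned to transcripts, the index-based one directly from reads and an index, all on mm10 and GENCODE M21, per the file headers and the texts deposited with them. The sources used here name no tools. The authors deposited estimated counts, called expected counts per the file headers, in which shared reads are divided. TPM, as the authors deposited it, is scaled over all entries of a table, and the deposited FPKM by length and depth. Interval bounds of TPM, deposited by the authors, were used as a score of precision.

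Estimated counts were rounded. Rows naming no annotated gene (0.144% and 0.081% of counts) were left out, as was Kdm5d. Columns of 2 libraries in 1 group were used. Means and SDs are over both. Ratios used TMM (edgeR 4.0.16, R 4.3.3) and 0.5 added to each count, with a two-sided exact binomial test adjusted over genes with at least 10 counts in all, tried on simulated data. Alternatives used library totals, DESeq2 1.42.0 size factors, other tables and other minimums. RefSeq promoters were matched by symbol. The enzymes, lists and pairs were chosen with earlier results of these data known. Values in full are given for the highest and lowest of each role, those above the 90 percentile and those under 10 counts. Transcripts are named for the 5 highest and 3 lowest shares, partners for the 3 highest of each list, and other transcripts were chosen after their values were seen.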

Additional observations from a re-analysis of the deposited data

How the results depend on the processing

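Counting depth limits the values of the lowest enzymes, Kdm4d and Kdm8, and the libraries cover 1 state. The number of enzymes above the 90 percentile was 6, and it was 3 in the index-based table and 12 with no filter on low counts. The median level of 10.02 TPM was 5.105 in the index-based table and 46.7 when TPM was rescaled to protein-coding genes alone. Both change the scale of all genes: the median measured protein-coding gene moved from 3.585 to 2.016 and 16.7 TPM. The number above that median, 32, was 33 in the index-based table and 40 with no filter on low counts. The number called between libraries, 0, was 22 with no fold minimum. The median share not annotated as protein-coding, 35.4%, was 24.2% in the alignment-based table and 11.75% by estimated counts. The share in full-length coding transcripts, 44.8%, was 62.6% and 79.1% there. The share by counts, both alternatives for full-length transcripts and those that leave enzymes out were chosen after seeing the data. The ratio of Setd1a to Setd1b, 0.895, reversed to 1.225 in the index-based table. Leaving out 1 library gave 32 to 33 enzymes above the median, 4 to 7 above the 90 percentile, medians of 9.525 to 10.39 TPM, shares of 33.6% to 34.8% and a Setd1a to Setd1b ratio of 0.775 to 1.02. The cause was not tested. Of the alternative values of main results, 30 were rated as close to the main value and 10 as moved. The 30 include some given above, such as the 40 enzymes above the median with no filter on low counts. Of values of single genes and pairs 28 stayed close and 48 moved by more than the spread between libraries. Most of those 28 were ratios with 1 library left out. Such a ratio is set against a spread that comes from the same libraries, so its rating shows little. Those 48 were all in the index-based table. There TPM of measured protein-coding genes was at a median of 0.696 and 0.325 of the gene-level value, so that 41 of these moves hold that change of scale. No paired analysis was possible because there is 1 group.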
